A study of Mus musculus with 8 samples.

Results

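The enzymes that place sugars on the extracellular part of Notch receptors were examined in mouse muscle stem cells after a short pulse of BMP4 or BMP6. The 6 genes were picked by name from the deposited expression table, and each had a locus of its own among the 55223 loci: the Fringe genes Lfng, Mfng and Rfng, the O-fucosyltransferase gene Pofut1, the O-glucosyltransferase gene Poglut1 and the O-GlcNAc transferase gene Eogt. The cells came from muscle of wild-type C57BL/6J females, 6 to 8 weeks old, and were grown on Matrigel for 2 days. All cultures, controls included, then spent 6 h in serum-free medium with 200 ng/ml of BMPR-IA-Fc, a soluble receptor that captures BMPs. The BMP4 group received 100 ng/ml BMP4 for 1 h and its control, vehicle_a, received the solvent (4 mM HCl with 0.1% BSA), both from cell isolations 48 and 54. The BMP6 group received 100 ng/ml BMP6 for 1 h and its control, vehicle_b, the same solvent, both from isolations 75 and 77. Each of the 4 groups thus held 2 libraries, called replicate 1 and replicate 2 in the order of the isolation numbers, and each isolation gave 1 stimulated and 1 vehicle library. No isolation received both ligands, so a difference between BMP4 and BMP6 cannot be told apart from a difference between isolations.

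Notch receptors carry rows of EGF-like repeats that are modified by O-linked sugars while the protein is folded and exported. Pofut1 adds fucose in the endoplasmic reticulum, and the 3 Fringe enzymes extend that fucose with N-acetylglucosamine in the Golgi. In cultured mammalian cells, Lfng and Mfng raise the response of Notch1 to Delta-like ligands and lower the response to Jagged ligands, whereas Rfng raises both. Poglut1 and Eogt attach glucose and N-acetylglucosamine to other positions of the repeats. In adult muscle, Notch signalling is known for keeping satellite cells quiescent and Pax7-positive, and mutations of POGLUT1 in human cause a muscular dystrophy with few satellite cells. Lfng itself is known for its cyclic transcription in the presomitic mesoderm of the mouse embryo, which Notch and Hes7 control.

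Promoter windows from RefSeq (build GRCm38.p6, 250 bases before to 50 after the start of the gene) were found for 4 of the 6 genes, Lfng, Rfng, Pofut1 and Poglut1. The 250 upstream bases of Lfng and Rfng are shown because these are the abundant Fringe genes, of which Lfng passed the test with a BMP pulse and Rfng did not. They are written 5′ to 3′ on the gene's strand, Lfng from chr5:140607091-140607340 on the plus strand and Rfng from chr11:120784205-120784454 on the minus strand. Capitals mark matches, on either strand, to the GC-rich SMAD element GGCGCC or its variant GGAGCC, the RBPJ motif TGGGAA, the E-box CACGTG and the N-box CACGAG.
Lfng: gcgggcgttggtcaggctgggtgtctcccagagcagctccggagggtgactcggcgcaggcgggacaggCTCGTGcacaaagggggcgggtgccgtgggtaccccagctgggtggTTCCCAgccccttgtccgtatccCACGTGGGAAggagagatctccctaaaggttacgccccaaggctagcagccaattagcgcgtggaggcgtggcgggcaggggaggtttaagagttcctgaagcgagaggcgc
Rfng: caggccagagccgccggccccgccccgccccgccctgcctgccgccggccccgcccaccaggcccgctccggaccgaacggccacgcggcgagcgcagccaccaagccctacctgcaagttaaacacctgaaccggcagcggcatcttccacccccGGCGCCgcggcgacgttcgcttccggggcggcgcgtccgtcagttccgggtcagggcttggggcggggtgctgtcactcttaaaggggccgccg
The Lfng window held 2 RBPJ motifs, 1 read on the minus strand 135 bases before the start and 1 on the plus strand 108 bases before it. An E-box stood 112 bases before the start and shared 2 letters with the nearer RBPJ motif. An N-box on the minus strand lay 181 bases before the start, the short SMAD motif GTCT (not in capitals) lay 228 bases before it, and GGAGCC lay 12 bases after it, beyond the printed stretch. GGCGCC had no match in the Lfng window. In the Rfng window the GC-rich SMAD element GGCGCC matched 94 bases before and 12 bases after the start, and none of the other 5 motifs matched. The variant SMAD element matched at 2 places in the Pofut1 window, and in the Poglut1 window that variant, the RBPJ motif and the E-box each matched once. Among 32851 mouse promoter windows of the same length, the RBPJ motif occurred in 25.6%, the E-box in 7.15%, the N-box in 6.47%, the GC-rich SMAD element in 11.9%, its variant in 30.8% and the short SMAD motif in 88.0%. A match describes letters and does not show that a factor binds there.

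Transcript levels were deposited as TPM (shares of each library's transcripts, scaled by transcript length), and the transcript coverage gave an estimated depth of 48012828 to 58002740 reads per library. All 7 muscle stem cell markers examined, Pax7 and Myf5 among them, reached 0.5 TPM in every group. They summed to 2280 to 2732 TPM in BMP4 and vehicle_a libraries and to 1192 to 1657 TPM in BMP6 and vehicle_b libraries. Most of each sum came from Des, Myod1 and Itga7, with means of 1327.5, 690.8 and 333.3 TPM in vehicle_a. In vehicle_b their means were 561.0, 451.25 and 202.75 TPM. Pax7 had a mean of 16.76 TPM in vehicle_a and 11.77 TPM in vehicle_b. The means of Myf5 (45.26 and 90.17 TPM) and Vcam1 (18.56 and 29.335 TPM) were higher in vehicle_b. Markers of differentiated muscle were also high, at 1887 to 5416 TPM in BMP4 and vehicle_a libraries and 186 to 257 TPM in BMP6 and vehicle_b libraries. Pericyte and smooth muscle markers summed to 3.95 to 15.5 TPM in the former and 0.289 to 1.35 TPM in the latter. The summed markers of fibroblasts, endothelium and immune cells did not exceed 2.11 TPM each in any library, and those of Schwann cells summed to 4.25 to 9.82 TPM. Of the 4 immune genes, Ptprc and Adgre1 were listed at 0 in all 8 libraries. Csf1r stood at 0.0464 to 0.115 TPM and Cd68 at 0.919 to 2.01 TPM. Of the 6 genes, 5 reached a mean of 0.5 TPM over the 8 libraries and were tested among 16908 loci, and Mfng did not. Tests were two-sided limma tests on log2(TPM + 0.5) with Benjamini-Hochberg adjustment over all tested loci and a threshold of 0.05. Because of the added 0.5, the reported log2 changes are smaller than the true ones for weakly expressed genes. A second limma fit, with the isolation as a block, is given where it changes a call, since the labels pair the libraries of an isolation.

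Lfng was the one gene of the 5 tested that passed with a BMP pulse, with BMP6 and on average over both ligands. It stood at 12.7 and 13.6 TPM in the 2 BMP4 libraries, against 4.21 and 3.11 TPM in vehicle_a. In the other experiment it stood at 8.38 and 8.61 TPM in BMP6 libraries, against 1.20 and 1.24 TPM in vehicle_b. Stimulated and vehicle libraries did not overlap for either ligand, and every stimulated library was above every vehicle library of both experiments. With 2 libraries a group, non-overlap or a shared direction over the isolations can arise without an effect. The share of all loci that show it was not counted, here and for the genes below, so it is description only. Within isolations the ratio of stimulated to vehicle TPM was 3.01 and 4.38 for BMP4 (isolations 48 and 54) and 7.01 and 6.95 for BMP6 (isolations 75 and 77). These are levels in bulk RNA, in which fewer cells of a type and less RNA per cell cannot be told apart.

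The log2 change of Lfng with BMP6 was 2.39 (SE 0.16, 95% interval 2.00 to 2.78), and it passed in limma with an adjusted p of 0.0256 and, with the isolation as a block, of 0.0192. With BMP4 it was 1.73 (SE 0.16, interval 1.34 to 2.11), which missed the threshold in limma (adjusted p = 0.0784) and passed with the block (adjusted p = 0.0233). Averaged over both ligands the change was 2.06 (SE 0.11, interval 1.78 to 2.33), with an adjusted p of 0.00488 in limma and 0.00502 with the block, and Lfng was higher in 4 of 4 isolations. For BMP6, leaving out BMP6 replicate 1 or 2 or vehicle_b replicate 1 or 2 lost the call (limma adjusted p 0.319, 0.228, 0.237 and 0.366), while the change itself stayed between 2.37 and 2.41. Without BMP4 replicate 1 its adjusted p was 0.05, just outside the threshold. The averaged change lost its call without BMP6 replicate 1, vehicle_b replicate 1 or vehicle_b replicate 2 (limma adjusted p 0.0539, 0.0532 and 0.0523).

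The 7 muscle stem cell markers were compared in the same way. Limma called 0 of 7 with BMP4, with BMP6 or on average, where 0.0237%, 0.0118% and 0.071% of all tested loci were called. With the isolation as a block it called 1 of 7 in each comparison, against 0.633%, 0.148% and 0.674% of all loci. The called marker was Myf5, a myogenic transcription factor. With BMP4 all 7 markers had a log2 change below 0 (median -0.23, beside -0.016 over all tested loci). With BMP6 4 were below and 3 above 0 (median -0.0038). Myf5 had 23.02 and 16.61 TPM in BMP4 libraries, against 52.35 and 38.17 TPM in vehicle_a. It had 58.65 and 52.28 TPM in BMP6 libraries, against 93.95 and 86.39 TPM in vehicle_b. It was lower in the stimulated library of 4 of 4 isolations, and the average log2 change was -0.93 (limma adjusted p = 0.00151 with the block and 0.217 without it). The summed TPM of the 7 markers, most of it from Des, Myod1 and Itga7, ranged between 2280 and 2544 in BMP4 libraries. It ranged between 2554 and 2732 in vehicle_a, between 1330 and 1657 in BMP6 libraries and between 1192 and 1589 in vehicle_b. The part of these markers in the Lfng result was not tested.

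The 6 genes and all gene lists were chosen with earlier results of these data known. Counts set beside the share of all loci are therefore no test of enrichment, here and in the lists below. Counted over the 6 genes, limma called 1 of the 5 tested genes with BMP6, against 0.0118% of all tested loci, and that gene was Lfng. With BMP4 it called 0 of 5, against 0.0237% of all loci, and 1 of 5 with the isolation as a block, against 0.633%. The unadjusted limma p lay below 0.05 for 1 of 5 genes with BMP4, Lfng, beside 3.31% of all loci, and limma on voom-weighted estimated reads called 0 of 5 without and 1 of 5 with the block. For the average of both ligands 1 of 5 was called in either fit, against 0.071% of all loci and 0.674% with the block. The median log2 change of the 5 tested genes was -0.09 with BMP4 and -0.02 with BMP6, beside medians of -0.016 and -0.0021 over all tested loci.

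**Figure D1:**
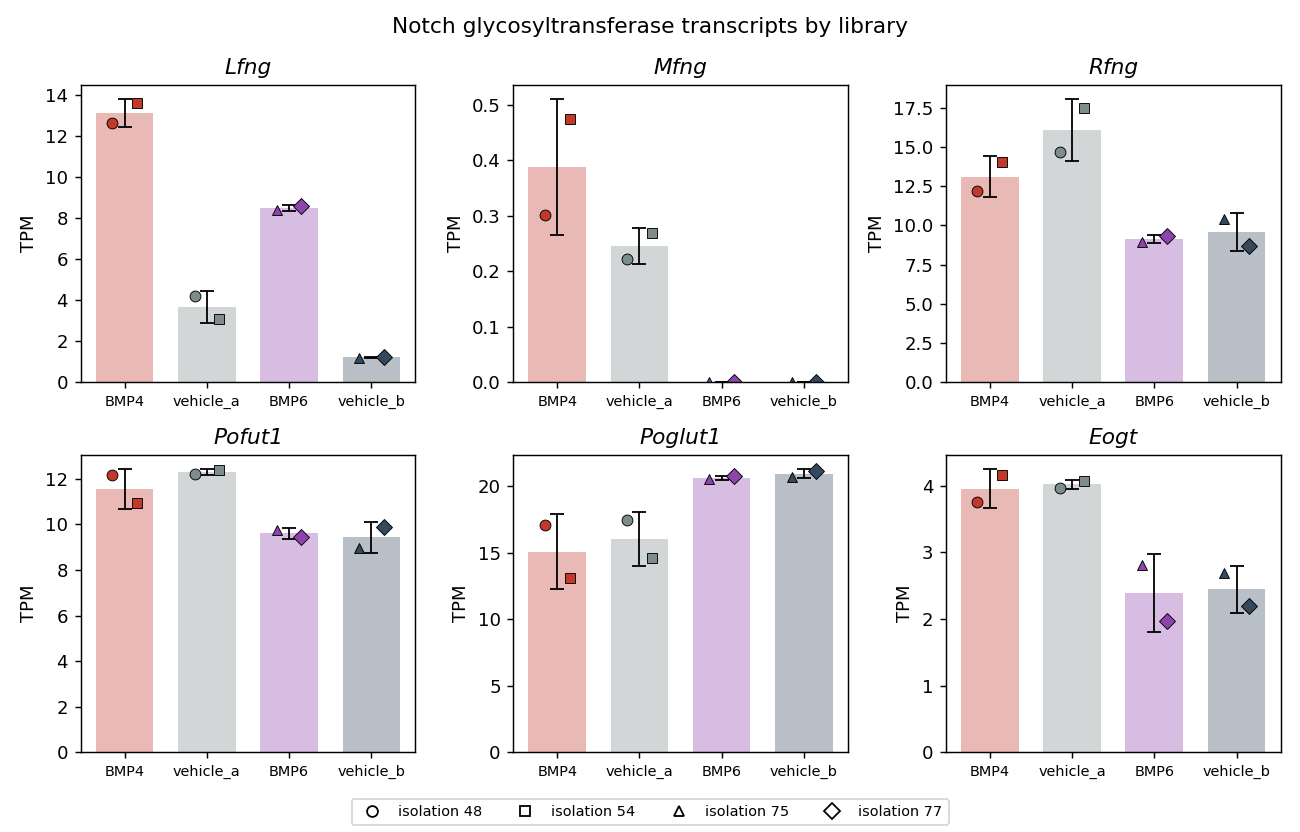
TPM of the 6 Notch glycosyltransferase genes in each library. Bars are group means, whiskers SD (n = 2) and symbols mark the isolation. Each panel has its own scale. In the Lfng panel the BMP4 points (12.7 and 13.6 TPM) and the BMP6 points (8.38 and 8.61 TPM) stand above their vehicles. The BMP4 points lie below both vehicle_a points in the Rfng and Pofut1 panels. They lie above both in the Mfng panel, where all values are under 0.5 TPM. The other stimulated points overlap or equal their vehicles.

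The size of the Lfng response was compared between the ligands. The BMP6 response exceeded the BMP4 response by 0.66 on the log2 scale (SE 0.23, unadjusted 95% interval 0.12 to 1.21), with 0.28 at a pseudocount of 2 and 0.28 to 0.96 over all alternatives. This difference did not pass in limma without the block (adjusted p = 1.0) or with it (adjusted p = 0.319). Of the 5 tested genes 0 were called for the difference, against 0.0% of all loci in either fit, with voom-weighted reads also at 0, and 1 of 5, Lfng, had an unadjusted limma p below 0.05, beside 1.44% of all loci. The stimulated levels themselves ran the other way, with 8.50 ± 0.16 TPM in BMP6 libraries and 13.1 ± 0.67 TPM in BMP4 libraries (SD, n = 2 each), beside vehicle levels of 1.22 ± 0.03 TPM in vehicle_b and 3.66 ± 0.78 TPM in vehicle_a.

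The table annotated a single Lfng transcript, ENSMUST00000031555.3, with 8 exons and 2305 nt, at chr5:140593075-140601300 on the plus strand of GRCm39. Its TPM equalled those of the gene in every library, and an estimated 1122 and 1158 reads supported it in BMP4 libraries, against 388 and 268 in vehicle_a. In BMP6 libraries 670 and 708 reads supported it, against 105 and 103 in vehicle_b. The depth of each exon was scaled to the same number of estimated reads so that it could be set side by side between libraries.

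All 8 exons were covered more deeply in the stimulated library of every isolation. The stimulated to vehicle ratio of exon depth ranged between 2.44 and 3.83 in isolation 48 (median 3.01) and between 2.51 and 6.24 in isolation 54 (median 4.02). In isolation 75 the ratios ranged between 4.78 and 8.83 (median 7.03), and in isolation 77 between 3.83 and 17.5 (median 6.90). The highest ratio belonged to exon 6 of isolation 77, whose depth was 18.9 in the BMP6 library, against 1.08 in the vehicle_b library, where it rested on 3.58 estimated reads. Single exons rested on 2.08 to 42.42 estimated reads in the vehicle_b libraries, so the ratios of isolations 75 and 77 are imprecise. The first exon, which holds 525 nt, took 17.6 to 20.9% of the Lfng reads in BMP6 libraries, against 21.1 to 21.5% in vehicle_b, and 22.1 to 23.4% in BMP4 libraries, against 21.5 to 26.7% in vehicle_a. The last exon, which holds 1139 nt, took 40.3 to 41.6% in BMP6 libraries, against 34.0 to 41.1% in vehicle_b. It took 37.5 to 37.9% in BMP4 libraries, against 32.7 to 37.9% in vehicle_a. No exon was less deeply covered in a stimulated library than in its vehicle.

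When transcripts in place of loci were tested (24850 with a mean of at least 0.5 TPM), the log2 changes of Lfng were the same but fewer of them passed. Limma gave an adjusted p of 0.0584 for BMP6, where 0.0161% of all transcripts were called, and of 0.115 for BMP4, where 0.00805% were called. For their average the limma adjusted p was 0.0346, among 0.0322% of transcripts called, and with the isolation as a block it was 0.196.

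**Figure D2:**
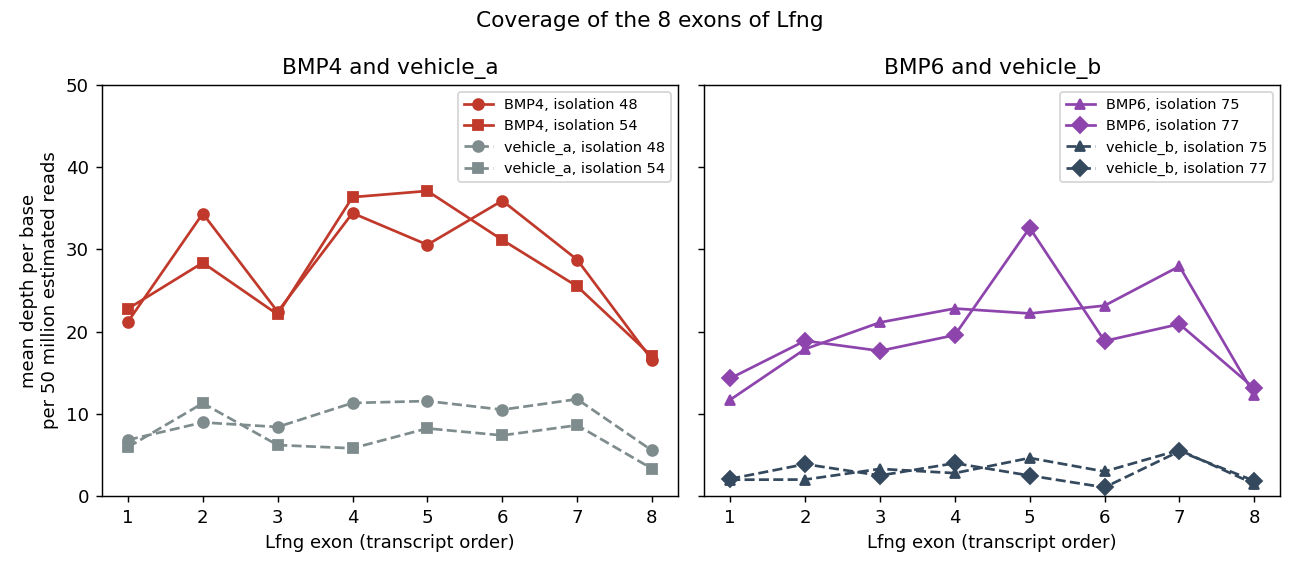
Mean depth per base of the 8 Lfng exons, in transcript order and scaled to equal library depth, for BMP4 and vehicle_a libraries (left) and BMP6 and vehicle_b libraries (right). Solid lines are stimulated and dashed lines vehicle libraries; each solid line runs above both dashed lines of its panel at all 8 exons, and exon 8 is the least deeply covered exon of every BMP4 library, with a group mean of 16.8.

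Rfng, the other abundant Fringe gene (chr11:120671574-120675033, minus strand, GRCm39), did not pass the test with either ligand. It stood at 12.2 and 14.02 TPM in BMP4 libraries, against 14.7 and 17.5 TPM in vehicle_a. It stood at 8.97 and 9.33 TPM in BMP6 libraries, against 10.4 and 8.71 TPM in vehicle_b. The BMP4 libraries were thus both below the 2 vehicle_a libraries, whereas BMP6 and vehicle_b libraries overlapped. Its log2 change was -0.28 with BMP4 (SE 0.15, interval -0.65 to 0.08, limma adjusted p = 1.0) and -0.06 with BMP6 (SE 0.15, interval -0.42 to 0.31, adjusted p = 1.0). With the isolation as a block the BMP4 change had a limma adjusted p of 0.182.

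Mfng, the third Fringe gene (chr15:78640082-78657675, minus strand), had the lowest levels of the 6. It was listed at 0.301 and 0.475 TPM in BMP4 libraries, against 0.223 and 0.269 TPM in vehicle_a, which corresponds to 22 and 33 estimated reads against 17 and 19. It was listed at 0 in both BMP6 libraries and in both vehicle_b libraries. These levels were under the filter and were left out of the main tests.

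Lfng made up a larger part of the Fringe transcripts in the stimulated libraries than in the vehicle libraries, a share that was described and not tested. Lfng supplied 50.4% and 48.4% of the summed Fringe TPM in BMP4 libraries, against 22.0% and 14.9% in vehicle_a. It supplied 48.3% and 47.996% in BMP6 libraries, against 10.3% and 12.4% in vehicle_b. Stimulated and vehicle libraries did not overlap, and the 4 stimulated libraries lay within a narrow band although their vehicles differed. The summed Fringe TPM was 26.6 ± 2.10 in BMP4 libraries and 20.0 ± 1.23 in vehicle_a, and 17.6 ± 0.41 in BMP6 libraries and 10.8 ± 1.18 in vehicle_b (SD, n = 2 each). Rfng supplied most of the rest, from 48.4 to 52.004% in the stimulated libraries and from 76.8 to 89.7% in the vehicle libraries, and Mfng at most 1.69%.

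**Figure D3:**
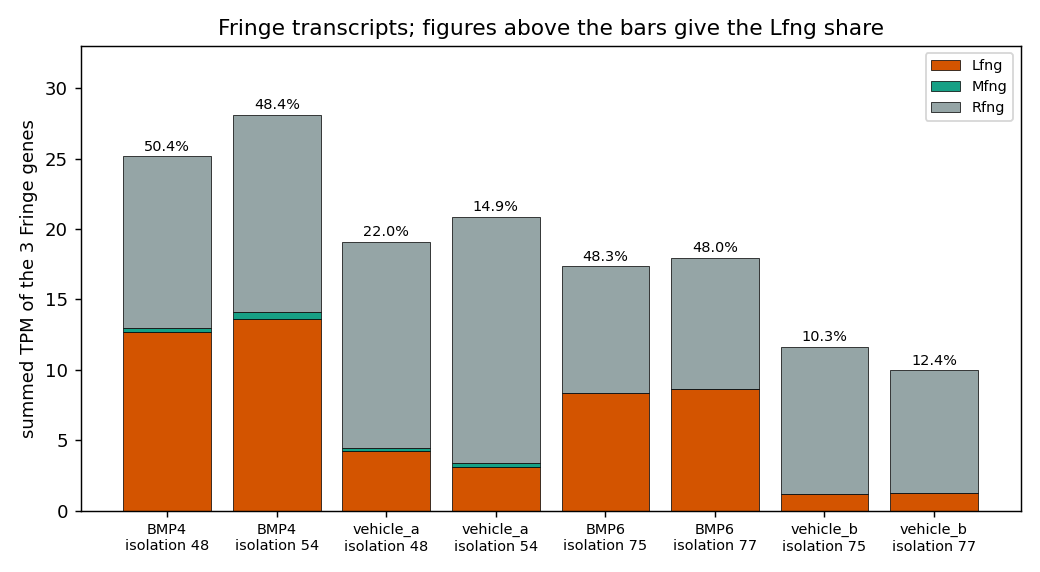
Summed TPM of the 3 Fringe genes in each library, stacked by gene, with the Lfng share printed above each bar. The Lfng share lies between 47.996% and 50.4% in the 4 stimulated libraries and between 10.3% and 22.0% in the 4 vehicle libraries.

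None of the 3 enzymes that start the O-glycans passed the test with either ligand. Pofut1 (chr2:153083453-153112167, plus strand), which supplies the O-fucose that Fringe extends, stood at 12.2 and 10.9 TPM in BMP4 libraries, against 12.2 and 12.4 TPM in vehicle_a. It stood at 9.76 and 9.43 TPM in BMP6 libraries, against 8.95 and 9.89 TPM in vehicle_b. Both BMP4 values lay below those of vehicle_a, the nearest pair at 12.16 against 12.20 TPM, and BMP6 and vehicle_b values overlapped. The log2 changes were -0.09 (SE 0.12, interval -0.37 to 0.20) and 0.03 (SE 0.12, interval -0.26 to 0.31), both with a limma adjusted p of 1.0. Of its 5 annotated transcripts the 5600 nt transcript ENSMUST00000049863.12 carried most of the level, 79.4 to 97.2% across libraries.

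Poglut1 (chr16:38345499-38370620, minus strand), which adds O-glucose, had 17.1 and 13.1 TPM in BMP4 libraries, against 17.5 and 14.6 TPM in vehicle_a. It had 20.5 and 20.7 TPM in BMP6 libraries, against 20.7 and 21.2 TPM in vehicle_b. In each of the 4 isolations the stimulated library was slightly below its vehicle, with ratios between 0.897 and 0.992. The log2 changes were -0.09 with BMP4 (SE 0.16, interval -0.47 to 0.29) and -0.02 with BMP6 (SE 0.16, interval -0.40 to 0.36), and neither passed in limma (adjusted p = 1.0 for each).

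Eogt (chr6:97086985-97126143, minus strand), which adds O-GlcNAc, had 3.75 and 4.16 TPM in BMP4 libraries, against 3.97 and 4.07 TPM in vehicle_a. It had 2.81 and 1.98 TPM in BMP6 libraries, against 2.696 and 2.2003 TPM in vehicle_b. Stimulated and vehicle values overlapped in both experiments. The log2 changes were -0.02 with BMP4 (SE 0.19, interval -0.47 to 0.43) and -0.04 with BMP6 (SE 0.19, interval -0.49 to 0.42), each with a limma adjusted p of 1.0. The antisense gene Gm44065 overlaps Eogt and shares 7.36% of the Eogt 50-base stretches (322), so their reads cannot be told apart where they overlap, and Gm44065 was listed at no more than 0.0458 TPM. Pofut1 shared 2 such stretches with another gene, and Lfng, Mfng, Rfng and Poglut1 shared 0. Rfng lies 67 bases from Gps1 on the opposite strand, which stood at 63.13 to 71.99 TPM.

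**Figure D4:**
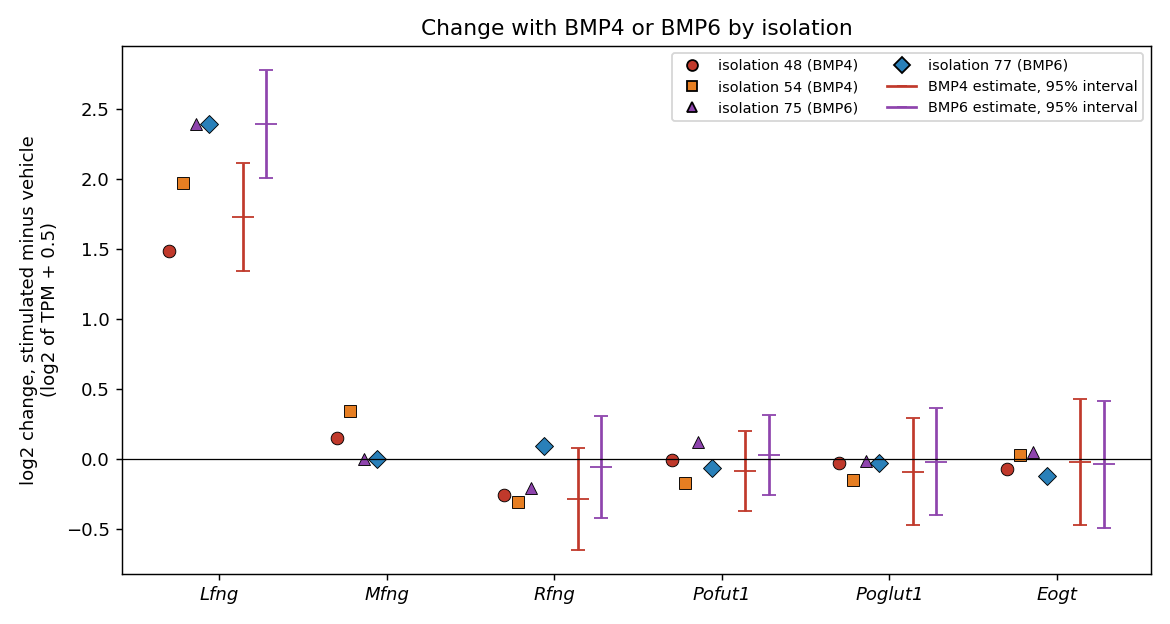
Log2 change of each gene, stimulated minus vehicle library on the scale of log2(TPM + 0.5), in isolations 48 and 54 (BMP4) and 75 and 77 (BMP6), with the limma estimates and their 95% intervals for the 5 tested genes. The Lfng changes lie at 1.48 and 1.97 for BMP4 and at 2.39 in both BMP6 isolations, and all intervals of the other tested genes include 0.

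Lfng rose in the order of the 6 levels with either ligand. Rfng also fell below Poglut1 with BMP4 and below Pofut1 with BMP6, pairs whose vehicle values overlapped. In vehicle_b the order was Poglut1, Rfng, Pofut1, Eogt, Lfng and Mfng, and in vehicle_a it was Rfng, Poglut1, Pofut1, Eogt, Lfng and Mfng. Lfng was thus next to last in both, and in vehicle_a its values overlapped those of Eogt, the gene above it. In BMP6 libraries Lfng followed Poglut1, Pofut1 and Rfng, with no overlap with its neighbours. In BMP4 libraries it followed Poglut1, and its values overlapped those of Poglut1 and of Rfng, the next gene down. Neighbours that overlapped elsewhere were Rfng and Poglut1 in vehicle_a, and Rfng and Pofut1 in vehicle_b. TPM is a level per length, so these orders are comparable between genes.

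Levels under vehicle also differed between the experiments. Lfng stood at 1.20 and 1.24 TPM in vehicle_b, against 4.21 and 3.11 TPM in vehicle_a, a log2 difference of -1.26 (SE 0.16, limma adjusted p = 0.00863). Rfng was lower in vehicle_b as well, by a log2 difference of -0.72 (SE 0.15, limma adjusted p = 0.0228). These were the 2 of 5 tested genes that passed, against 27.2% of all tested loci. Eogt (log2 difference -0.62, limma adjusted p = 0.0522), Pofut1 (-0.37, adjusted p = 0.061) and Poglut1 (0.38, adjusted p = 0.111) did not pass.

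Group and isolation cannot be told apart in this comparison. The summed TPM of 4 differentiated muscle genes (Myog, Mymk, Ckm and Myh3) ranged between 186 and 257 in vehicle_b and between 2055 and 5416 in vehicle_a. The same sum ranged between 237 and 248 in BMP6 libraries and between 1887 and 5325 in BMP4 libraries. The 4 pericyte and smooth muscle markers summed to 0.378 to 1.35 TPM in vehicle_b and to 3.95 to 14.2 TPM in vehicle_a, most of it from Abcc9, while Rgs5 was at most 0.294 TPM. In limma all 4 differentiated muscle genes were lower in vehicle_b (adjusted p 0.00486 to 0.0333), against 27.2% of all tested loci. Abcc9, 1 of 2 tested pericyte markers, was also called lower (limma adjusted p = 0.044). It passed the filter only through vehicle_a and BMP4 libraries (means of 7.61 and 8.13 TPM, against 0.279 in vehicle_b and 0.332 in BMP6). Its call therefore adds no support, and Rgs5 and Kcnj8 stayed under the filter. The summed 7 muscle stem cell markers were dominated by Des, Myod1 and Itga7. The sum was 1192 to 1589 TPM in vehicle_b and 2554 to 2732 TPM in vehicle_a. Of the 7 markers, 4 were lower in vehicle_b: Cdh15 (log2 difference -2.23, limma adjusted p = 0.00415), Des (-1.27, adjusted p = 0.0424), Itga7 (-0.72, adjusted p = 0.0198) and Pax7 (-0.49, adjusted p = 0.0261). Myf5 was higher in vehicle_b (1.00, limma adjusted p = 0.022). Cdh15, a cadherin of satellite cells and myoblasts, had 43.12 and 45.41 TPM in vehicle_b, against 184.8 and 236.5 TPM in vehicle_a. The part of these cell states in the lower Lfng and Rfng levels of vehicle_b was not tested. Leaving out vehicle_b replicate 1 or 2 ended the Lfng call (limma adjusted p 0.0646 and 0.0765), and the Rfng call ended without vehicle_a replicate 2, either vehicle_b replicate or either BMP6 replicate (adjusted p 0.0518 to 0.141).

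The next list held other enzymes of O-linked glycans, not all of which, such as Pofut2 and B3glct, are known to act on Notch. Of 8 further enzymes listed, 7 had a locus of their own and were tested, while Poglut2 shared its locus with other genes and is only named. In limma 0 of 7 were called with BMP4, with BMP6 or on average, where 0.0237%, 0.0118% and 0.071% of all tested loci were called. At such shares a count of 0 in a list this short is no result about the list, here and in the lists that follow. B4galt1, which adds galactose to the N-acetylglucosamine that Fringe places, had 21.4 and 26.4 TPM in BMP4 libraries, against 15.9 and 17.5 TPM in vehicle_a. It had 13.8 and 16.5 TPM in BMP6 libraries, against 11.1 and 13.2 TPM in vehicle_b. It was higher in 4 of 4 isolations, and its average log2 change of 0.40 passed with the block (SE 0.04, limma adjusted p = 0.0446, 1 of 7 called, against 0.674% of all loci) but not without it (SE 0.12, adjusted p = 1.0). The median change of the 7 genes over both ligands was 0.05, beside -0.01 over all tested loci. Between the vehicles, Gxylt2, which adds xylose to O-glucose, was higher in vehicle_b (log2 difference 0.77, limma adjusted p = 0.0347), and the other 6 did not pass, so that 1 of 7 was called, against 27.2% of all tested loci.

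The supply of GDP-fucose, the donor for Pofut1, was covered by 6 genes, and 0 of 6 were called in limma for BMP4, for BMP6, for their average or between the vehicles, the last against 27.2% of all tested loci. With the isolation as a block, which gives no value between the vehicles, 0 of 6 were called as well. The gene furthest from 0 with BMP4 was Slc35c1, a GDP-fucose carrier of the Golgi, at -0.27 on the log2 scale (limma SE 0.27, adjusted p = 1.0). The median over the list was -0.13 with BMP4 and 0.01 with BMP6, beside -0.016 and -0.0021 over all tested loci.

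The substrates of these enzymes, 4 Notch receptors and 6 ligands, held 6 genes above the filter, and 0 of 6 were called with BMP4, BMP6 or their average in limma with or without the block. Jag1 was the furthest from 0 with BMP4, with 4.50 and 4.77 TPM in BMP4 libraries, against 2.50 and 3.01 TPM in vehicle_a (log2 change 0.66, SE 0.36, limma adjusted p = 1.0, and 0.0597 with the block). With BMP6 its values overlapped, at 3.78 and 7.19 TPM in BMP6 libraries, against 4.16 and 7.99 TPM in vehicle_b. The Delta-like gene Dll1 had 18.9 and 12.6 TPM in BMP6 libraries, against 14.6 and 11.1 TPM in vehicle_b, with no call (log2 change 0.27, SE 0.24, limma adjusted p = 1.0). Between the vehicles 3 of 6 were lower in vehicle_b, against 27.2% of all tested loci called in either direction: Notch1 (log2 difference -1.52, limma adjusted p = 0.0102), Notch3 (-2.94, adjusted p = 0.00901) and Dll1 (-1.82, adjusted p = 0.00869). The Notch1 locus of the table also carries a microRNA, and the Notch2 locus a predicted gene.

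Of 12 genes for receptor cleavage and the nuclear Notch complex, 0 of 12 were called with BMP4, BMP6 or their average in limma with or without the block. The largest log2 change with BMP4 belonged to Maml1, a coactivator, at -0.16 (SE 0.19), and with BMP6 to Psen2, a catalytic subunit of gamma-secretase, at 0.16 (SE 0.75), each with a limma adjusted p of 1.0. Psen2 varied mainly between isolations, with 5.49 and 20.2 TPM in BMP4 libraries and 5.28 and 20.6 TPM in vehicle_a. Between the vehicles 2 of 12 were called, against 27.2% of all tested loci, both of them gamma-secretase subunits that were lower in vehicle_b, Aph1a by a log2 difference of -0.56 (limma adjusted p = 0.0281) and Ncstn of -0.35 (adjusted p = 0.0402).

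Of 8 Notch effector genes 5 were tested, and limma called 0 of 5 with BMP4, with BMP6 or on average. With the block it called 1, 2 and 2 of 5, against 0.633%, 0.148% and 0.674% of all tested loci. Hes1, a repressor that Notch is known to induce, had 119 and 58.7 TPM in BMP4 libraries, against 14.2 and 11.4 TPM in vehicle_a. It had 66.1 and 94.0 TPM in BMP6 libraries, against 6.04 and 12.5 TPM in vehicle_b. The groups did not overlap, and with the block Hes1 was called for BMP4 (log2 change 2.67, limma adjusted p = 0.0226), BMP6 (3.10, adjusted p = 0.0302) and their average (2.89, adjusted p = 0.00653). Without the block the adjusted p were 0.367, 0.338 and 0.0659. Hes6, a family member known to oppose Hes1, was called with the block for BMP6 (log2 change 0.50, limma adjusted p = 0.0441) and on average (0.30, adjusted p = 0.0287), and without the block its adjusted p was 1.0 for both. All 5 tested effectors had a log2 change above 0 with each ligand, with a median of 0.46 with BMP4 and 0.50 with BMP6, beside -0.016 and -0.0021 over all tested loci. Nrarp passed the filter only through the BMP4 experiment (means of 1.56 and 0.920 TPM, against 0.207 in BMP6 and 0.188 in vehicle_b). In isolation 77 it was lower with BMP6 (0.163 against 0.2056 TPM). Heyl was also low, at means of 0.730 TPM in BMP6 libraries and 0.492 TPM in vehicle_b. The shared direction was not tested. Between the vehicles Hes6 (log2 difference -2.21, limma adjusted p = 0.0195), Hey1 (-2.81, adjusted p = 0.00569) and Heyl (-4.60, adjusted p = 0.0074) were lower in vehicle_b, 3 of 5 against 27.2% of all tested loci.

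A list of 5 BMP response genes, Id1, Id2, Id3, Smad6 and Smad7, gave the scale of the pulse. Smad7, an inhibitory SMAD, passed in limma with BMP4 (log2 change 3.02, SE 0.23, adjusted p = 0.04) and had a change of 2.35 with BMP6 (adjusted p = 0.0905, and 0.0121 with the block). On average over both ligands 3 of 5 genes passed in limma, against 0.071% of all tested loci, Smad7 (2.69), Smad6 (1.94) and Id1 (1.68). Id3 (1.26, limma adjusted p = 0.0446) joined them with the block, 4 of 5 against 0.674%. With each ligand alone 3 of 5 genes, Smad7, Smad6 and Id1, passed with the block (limma adjusted p 0.00326, 0.042 and 0.0367 with BMP4 and 0.0121, 0.0452 and 0.0481 with BMP6), against 0.633% of all loci with BMP4 and 0.148% with BMP6. Between the vehicles Smad7 was higher (log2 difference 0.97, limma adjusted p = 0.0303) and Smad6 lower (-0.84, adjusted p = 0.0366) in vehicle_b, 2 of 5 against 27.2% of all tested loci. The average Lfng change of 2.06 lay between those of Smad7 and Smad6.

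The loci whose pattern was most like that of Lfng were sought by Pearson correlation of log2(TPM + 0.5) over the 8 libraries, among 11849 loci with 1 gene name. The nearest was Snai1, a zinc finger repressor, with r = 0.984, followed by Smad6 (0.977), Arid3a (0.968), Chsy1 (0.960) and Gse1 (0.951). The 8 libraries share 4 isolations and fall into 2 experiments, so these coefficients describe a pattern and carry no test. Snai1 had 95.5 and 98.1 TPM in BMP4 libraries, against 36.0 and 16.9 TPM in vehicle_a, and 55.8 and 47.6 TPM in BMP6 libraries, against 4.66 and 3.76 TPM in vehicle_b. As for Lfng, its levels were lowest in vehicle_b and highest in BMP4 libraries. The average log2 change over both ligands, which the choice by likeness to Lfng favours and which is given with no test, was 2.71 for Snai1, 1.94 for Smad6, 1.93 for Arid3a, 0.29 for Chsy1 and 1.38 for Gse1. Among the other Notch glycosyltransferase genes the coefficient with Lfng was 0.511 for Mfng, 0.333 for Eogt, 0.316 for Pofut1, 0.152 for Rfng and -0.433 for Poglut1.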

How the data were processed

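The 8 cultures each gave 500 ng of RNA, which was enriched for poly(A), made into strand-specific libraries and read as 50 nt single ends, per the labels' protocols. The submitters' processing notes list STAR 2.7.11a, SAMtools 1.17 and the build GRCm39. StringTie 2.2.1 gave the deposited TPM and FPKM values, run by the authors on a merged annotation without correcting for multiply mapped reads and without a strand option (per the file headers). Coverage (signal per exon and transcript) was deposited in the same output. Reads of overlapping, antisense or near-identical genes may therefore be split between loci. TPM are shares of a library.

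The 6 genes and all gene lists were chosen with earlier results of these data known. Groups were taken from the labels. Estimated reads are coverage times length over the read length, 48012828 to 58002740 per library. Depth limits low genes such as Mfng and the values of single Lfng exons. The model, limma 3.58.1 in R 4.3.3, had 4 group means on log2(TPM + 0.5) and a variance trend, was tested on simulated data, and covered the 16908 loci averaging 0.5 TPM or more. It takes 1 spread per gene from all 8 libraries. The 5 comparisons were each BMP against its vehicle, their average, their difference, and vehicle_b against vehicle_a. The labels give both libraries of an isolation the same number; their deviations from the group means correlated at 0.707 (BMP4 and vehicle_a) and 0.455 (BMP6 and vehicle_b), so the fit with isolation as replicate block stands beside the main one. That fit cannot give vehicle_b against vehicle_a. Replicates were no duplicates of each other: estimated reads of replicates differed by a chi-square of at least 37.6 per locus. Of each pathway list the text names the members that passed in either fit, and otherwise the member furthest from 0; of the marker lists it names the called members, which was decided after their values were seen. Genes most like Lfng were the 5 highest correlations, leaving out numbered gene models. Lists were matched by the locus name. Promoters came from RefSeq (GRCm38.p6), whose positions are not those of the files' build. Shared 50-base stretches were counted in GENCODE M21 transcripts. Alternatives were the block, other pseudocounts and filters, FPKM, median-of-ratios and quantile scaling, no trend, voom weights on estimated reads, only the ligand's own libraries, and each library or isolation left out.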

Additional observations from a re-analysis of the deposited data

How the results depend on the processing

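The Lfng change kept its direction in every comparison under all alternatives. With BMP4 it stayed between 1.43 and 1.97 and its limma adjusted p ranged from 0.0019 to 1.0. It passed in 6 of 24 alternatives. Among them were the replicate block (1.73, adjusted p = 0.0233), median-of-ratios scaling (1.73, adjusted p = 0.0469) and voom weights with the replicate block (1.84, adjusted p = 0.00188), each of which called 1 of 5 genes. With BMP6 the call was lost at a pseudocount of 2 (1.71, adjusted p = 0.0564, 0 of 5 genes called), and the range was 1.71 to 2.80. The difference of the BMP6 and BMP4 responses was 0.28 at a pseudocount of 2 and ranged from 0.28 to 0.96 over all alternatives, with no call in any. Tested by locus, the replicate block changed no other call among the 6 genes. It raised the loci called with BMP4 to 107, against 4 without it, and those called with BMP6 to 25, against 2.

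Leaving out 1 library or isolation gave Lfng changes of 1.48 to 1.97 with BMP4, 2.37 to 2.41 with BMP6, 1.94 to 2.18 on average, 0.42 to 0.91 for the difference of the responses and -1.46 to -1.07 between the vehicles. The number of called genes then lay between 0 and 1 in the first 3 and between 0 and 2 in the last. BMP4 passed in more than 1 of these fits, among them the fit without vehicle_a replicate 1. With the block, without isolation 75 or 77, BMP6 had adjusted p of 0.255 and 0.21, and without isolation 75 the average had 0.0574. Where an arm kept 1 library, it was assumed to vary like the other groups.

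At the transcript level Lfng passed with BMP6 at a pseudocount of 0.1 (2.71, adjusted p = 0.044) and without a filter (2.39, adjusted p = 0.0303), and its average missed with the replicate block (2.06, adjusted p = 0.196). Leaving out 1 library gave 1.96 to 2.15 on average (adjusted p 0.0377 to 0.161) and -1.46 to -1.07 between the vehicles (0.0446 to 0.156).

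Small changes of the other genes turned sign when 1 library or isolation was left out. With BMP4 Eogt then lay between -0.089 and 0.045 and Poglut1 between -0.28 and 0.10. With BMP6 Eogt lay between -0.25 and 0.17, Pofut1 between -0.066 and 0.12 and Rfng between -0.21 and 0.094. On average Eogt lay between -0.13 and 0.075, Pofut1 between -0.076 and 0.016 and Poglut1 between -0.15 and 0.038. For the difference of the responses Eogt lay between -0.23 and 0.19 and Poglut1 between -0.12 and 0.26. Unfiltered, Mfng was called lower in vehicle_b than in vehicle_a (log2 difference -0.58, limma adjusted p = 0.0362). It was listed at 0 in both vehicle_b libraries and rested on 17 and 19 estimated reads in vehicle_a. Values of 0 have no spread, so nothing is concluded from that call. The causes were not tested. With 2 libraries a group, the spread between isolations limits these tests.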
